A study of Mus musculus with 22 samples.

Results

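The 6 genes described here make or spend glutathione, and were followed in the anterior neural tube of arsenic-exposed and control mouse embryos: Gclc, Gclm, Gss, Gpx2, Gpx4 and Gstm1. They were taken by name: every array probe whose platform annotation gives one of these symbols alone, which was 1 probe per gene, 6 of the 9230 genes that the array names. All 6 probes had a value on every array, and all 6 passed the filter on dim probes.

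The tissue came from Folr2-/- embryos, which lack folate receptor 2, so both arms carry that deletion. Treated dams had received 9.6 mg arsenic per kg of body weight as sodium arsenate, and control dams 10 µL of water per g, both into the peritoneum on gestational day (GD) 7 at hour 12 and again on GD 8 at hour 12. Arsenic-exposed embryos were sampled on 4 arrays at GD8:15 (3 h after the second injection), 3 at GD9:00 (12 h) and 4 at GD9:12 (24 h), against 4, 4 and 3 control arrays at the same stages. The tissue is a whole dissected region, so fewer cells of a type and less RNA per cell cannot be told apart. The labels do not say how many embryos or dams stand behind an array, and RNA was amplified before hybridisation. P-values therefore measure the spread between these samples, which may be partly technical.

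Glutathione is a tripeptide of glutamate, cysteine and glycine and the most abundant small thiol of animal cells. Glutamate-cysteine ligase, built from the catalytic subunit Gclc and the modifier subunit Gclm, joins glutamate to cysteine in the step that limits synthesis, and glutathione synthetase (Gss) adds glycine. The selenium-containing peroxidases Gpx2 and Gpx4 spend glutathione on peroxides; Gpx2 is best known from the lining of the gut, and Gpx4 reduces lipid peroxides inside membranes and is needed for the embryo to develop past gastrulation. Gstm1, a transferase of the mu class, couples glutathione to electrophiles. Arsenate is reduced in cells to arsenite, which binds thiols, and arsenite-glutathione complexes leave cells through transporters of the Abcc family. Gclc and Gclm are textbook targets of the transcription factor NRF2, which binds antioxidant response elements.

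Upstream sequence is shown for Gclm, a ligase subunit with a raw p under 0.05 between the arms at GD8:15, and for Gpx2, as the gene with the most differences in what follows. Windows matched 5 of the 6 genes, all but Gclc, so the choice lay among those 5. Both are from the RefSeq table of GRCm38.p6, read 5′ to 3′ on the gene's strand. The Gclm window of 250 bases is printed for its first 180, because the rest lies inside the annotated gene. Capitals mark a match to the antioxidant response core TGACNNNGC on either strand.
Gclm, chr3:122245307-122245486, plus strand: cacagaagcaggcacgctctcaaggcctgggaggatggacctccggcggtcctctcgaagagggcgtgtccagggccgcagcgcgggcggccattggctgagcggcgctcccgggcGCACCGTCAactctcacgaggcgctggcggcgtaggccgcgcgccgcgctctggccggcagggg
Gpx2, chr12:76795555-76795804, minus strand: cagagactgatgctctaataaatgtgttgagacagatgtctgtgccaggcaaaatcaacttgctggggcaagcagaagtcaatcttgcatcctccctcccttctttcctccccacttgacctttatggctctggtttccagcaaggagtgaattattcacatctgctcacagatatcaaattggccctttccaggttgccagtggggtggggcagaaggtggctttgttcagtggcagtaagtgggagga
The Gclm window held 1 match, GCACCGTCA, which reads as the core on the other strand. It begins 134 bases before the transcription start at which the window ends, and nearer than that to the start of the annotated gene. None of the other 8 windows of 250 bases listed for Gss, Gpx2, Gpx4 and Gstm1 held one, and 10.2% of all 32851 such windows in the table did. The AP-1 motif TGANTCA was in none of the 9 windows, against 6.75% of all; the 2 motifs can overlap. A match is a description of letters and not a shown binding site. Gclm also had the more CpG-rich window, with 41 CpG dinucleotides, against none in the Gpx2 window.

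Values below are log2 intensities after quantile normalisation, and each belongs to its probe, so levels are compared between arrays and never between genes. A difference is called when limma's p, adjusted by the Benjamini-Hochberg method over all 7830 tested probes, is under 0.05. Folr2 itself was dim on every array (6.68 to 7.47, its mean at the 2.93rd percentile of probes) and failed the filter. All 15 measured neural markers passed the filter, and their summed intensity lay between 7870 and 22431 on every array. Arrays differed in brightness: their deposited medians ran between 123 and 291. A pair of arsenic arrays stood apart, replicate 3 at GD8:15 and replicate 3 at GD9:00, at the low end of the leading component of the deviations from the group means (-36.9 and -29.2), which held 28.8% of that variance. Codes in the sample titles fall into series A, B, C and D, whose meaning is not stated. All arsenic arrays at GD8:15 were of series D and all later arsenic arrays of series C, so for arsenic a difference from GD8:15 and one between those series cannot be told apart.

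No gene of the 6 was called between arsenic and control embryos at any of the 3 stages, nor for their average. The background was the same: 0% of all tested probes were called at any of the 3 stages. At an unadjusted p under 0.05 stood 7.29% of all probes at GD8:15, 12.6% at GD9:00 and 1.28% at GD9:12; among the 6 genes these were Gclm at GD8:15 and Gpx2 at GD9:00. The 2 differences of lowest p were those of a ligase subunit 3 h after the second injection and of a peroxidase 12 h after it.

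**Figure D1:**
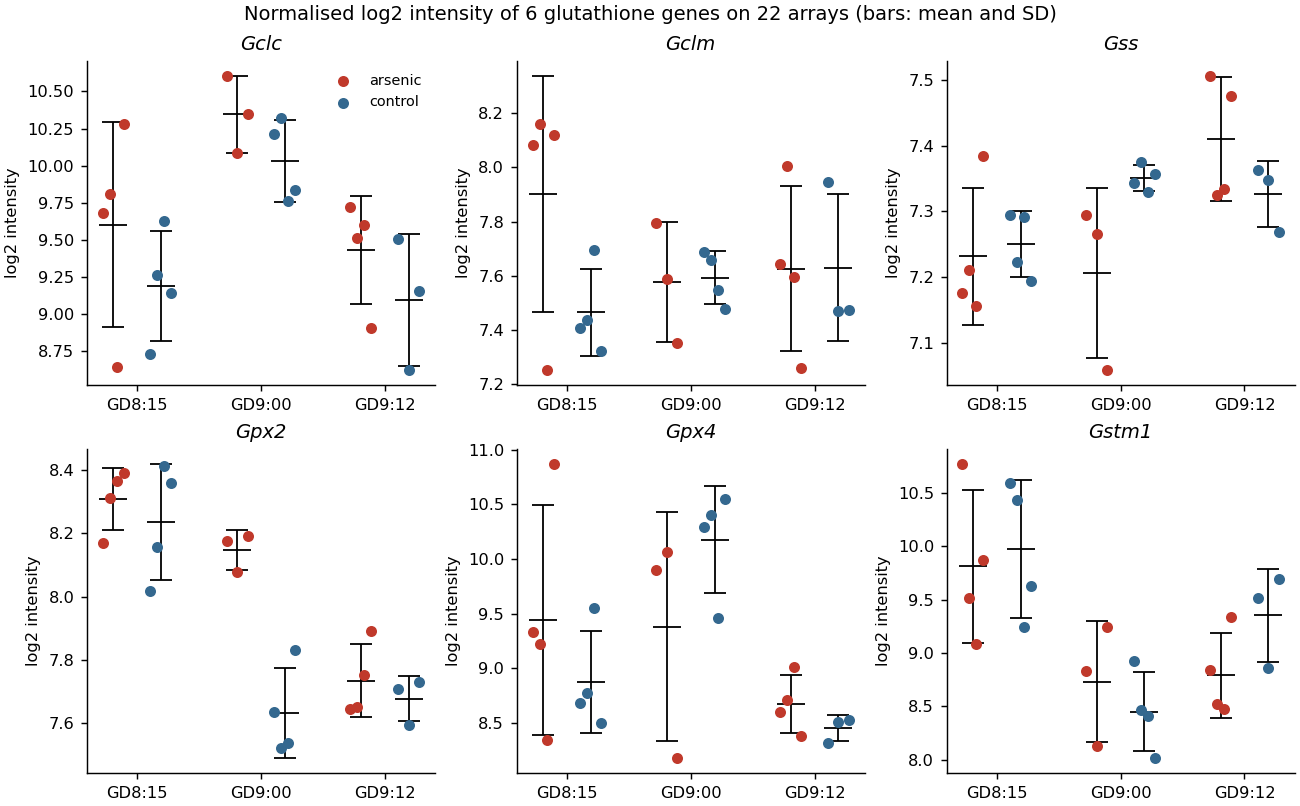
Log2 intensity (vertical axes, a separate scale for each gene) of the 6 genes on each of the 22 arrays, by stage, with arsenic arrays in red left of control arrays in blue; bars give the mean and SD of each group. Gpx2 at GD9:00 has all 3 arsenic arrays above all 4 control arrays, and 1 arsenic array at GD8:15 lies far below the other 3 for Gclm.

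Gclm, the modifier subunit, had 8.08, 8.16, 7.25 and 8.12 in arsenic embryos at GD8:15, against 7.41, 7.44, 7.70 and 7.32 in controls. Of the arsenic arrays, 3 lay above every control array and the remaining one, replicate 3, lay below every control array, so the groups overlapped. The difference was 0.44 ± 0.19 (SE; 95% interval 0.04 to 0.83), with a raw p of 0.0320 and an adjusted p of 0.626, and the exact permutation p was 0.143. Replicate 3 also had the highest array median of the series, 291. In deposited intensities, before normalisation, Gclm read 260, 287, 261 and 304 in arsenic embryos and 175, 197, 151 and 198 in controls, which do not overlap. Such a separation in the upward direction was found for 1.35% of all tested probes. Without replicate 3 the normalised difference was 0.65 (adjusted p = 0.334), still not called.

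At the later stages the normalised Gclm values of the arms overlapped. It read 7.80, 7.59 and 7.35 in arsenic embryos at GD9:00, against 7.69, 7.66, 7.55 and 7.48 in controls. Its deposited intensities at GD9:00, however, also lay apart, at 214, 159 and 186 in arsenic embryos and 148, 139, 127 and 125 in controls, as they did in the upward direction for 37% of all tested probes. At GD9:12 it read 7.64, 8.00, 7.60 and 7.26 in arsenic embryos, against 7.94, 7.47 and 7.48 in controls. The differences were -0.01 ± 0.20 and -0.0040 ± 0.20 (SE), with intervals reaching 0.41 and 0.42 upward, and their signs turned under the scaling of the authors. The change of the arsenic effect between GD8:15 and GD9:00 was -0.45 ± 0.28 (SE; adjusted p = 0.684), so a difference between stages in the effect on Gclm was not shown.

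Gclc, the catalytic subunit, averaged above control in arsenic embryos at all 3 stages without being called at any. At GD8:15 it had 9.68, 9.81, 8.64 and 10.28 in arsenic embryos, against 8.73, 9.26, 9.63 and 9.14 in controls. As for Gclm, 3 of the 4 arsenic arrays exceeded every control and replicate 3 lay below every control. The difference was 0.41 ± 0.29 (SE; adjusted p = 0.890). It was 0.73 without arsenic replicate 3 (adjusted p = 0.649) and 0.19 without arsenic replicate 4, the highest array.
At GD9:00 Gclc had 10.60, 10.08 and 10.35 in arsenic embryos, against 10.21, 10.32, 9.76 and 9.84 in controls. At GD9:12 it had 9.72, 9.51, 9.60 and 8.90 in arsenic embryos, against 9.51, 8.62 and 9.15 in controls. The differences were 0.31 and 0.34 (both ± 0.31, SE; adjusted p of 0.712 and 1.00); at GD9:00 the sign turned to -0.33 with median centring of the arrays, and leaving out 1 array gave 0.18 to 0.44 there and 0.10 to 0.55 at GD9:12. Averaged over the stages the difference was 0.36 ± 0.18 (SE), with a 95% interval of -0.02 to 0.73 and an adjusted p of 0.870.

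Gss, which completes glutathione, was the steadiest of the 6 probes, with a standard deviation within groups of 0.082, at the 3.56th percentile of tested probes. The mean of this probe lay at the 33.9th percentile of all probes. Its spread was not compared with that of probes of like brightness. Its arsenic minus control difference was -0.02 ± 0.07 at GD8:15 and 0.08 ± 0.08 at GD9:12 (SE). At GD9:00 it had 7.30, 7.27 and 7.06 in arsenic embryos, against 7.34, 7.38, 7.33 and 7.36 in controls, so that every arsenic array lay under every control array. A separation downward of this kind was found for 7.22% of all tested probes, and the difference of -0.15 ± 0.08 (SE) had an adjusted p of 0.464. In the scaling of the authors the same difference was 0.49; under that scaling the median difference of all probes was itself 0.43 there, with 0.21 and 0.02 at the earlier and the later stage.

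Gpx2, the glutathione peroxidase of epithelia, gave the clearest separation of the arms among the 6 genes. At GD9:00 it had 8.18, 8.08 and 8.19 in arsenic embryos, against 7.64, 7.52, 7.53 and 7.83 in controls. Every arsenic array lay above every control array, a separation upward that 2.41% of all tested probes showed. Group means were 8.15 ± 0.06 in arsenic embryos (SD, n = 3) and 7.63 ± 0.14 in controls (SD, n = 4), a difference of 0.52 ± 0.10 (SE) or 1.43-fold. Its raw limma p was 1e-04 and its adjusted p 0.147, so it was not called; the exact permutation test gave 0.0571, which is the smallest p that 3 against 4 arrays allow. With arrays weighted by quality the adjusted p was 0.00666, the only call of any of the 6 genes between the arms under any of the alternatives, while 110 probes in all were then called at that stage. Leaving out 1 array at a time kept the difference between 0.48 and 0.58, with adjusted p between 0.0690 and 0.999. The deposited array medians also lay apart at GD9:00, at 152 to 199 in arsenic embryos and 123 to 131 in controls. The part of that brightness in the Gpx2 difference was not tested.

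Endoderm markers were measured beside Gpx2 at this stage. The endoderm list had 19 of 22 measured markers above the filter, of which 13 were higher in arsenic embryos and 6 lower at GD9:00, with a median difference of 0.15 and none called. Its summed intensity was 8575 to 16126 in arsenic embryos and 6886 to 10076 in controls, and the arms overlapped. Trap1a, its brightest marker, averaged 11.76 in arsenic embryos and 11.10 in controls. Xist, transcribed from the inactive X chromosome, separated the arms at GD9:00 (9.77 to 10.35 in arsenic embryos, 7.10 to 8.71 in controls) and at GD8:15 (7.86 to 9.06 in arsenic embryos, 7.02 to 7.10 in controls), where Gpx2 overlapped. The Y-linked genes Eif2s3y, Kdm5d and Uty overlapped between the arms at GD9:00. They averaged 7.12, 10.91 and 7.42 in arsenic embryos and 7.53, 10.00 and 7.12 in controls. All arrays of both arms at GD9:00 were of series C. The part of these measures in the Gpx2 difference was not tested.

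At the other stages the Gpx2 arms overlapped. It had 8.17, 8.31, 8.37 and 8.39 in arsenic embryos at GD8:15, against 8.02, 8.16, 8.41 and 8.36 in controls, a difference of 0.07 ± 0.10 (SE; adjusted p = 0.981) that was -0.04 with median centring. At GD9:12 it had 7.64, 7.65, 7.75 and 7.89 in arsenic embryos, against 7.71, 7.59 and 7.73 in controls, a difference of 0.06 ± 0.10 (SE; adjusted p = 1.00). The effect at GD9:00 exceeded that at GD8:15 by 0.44 ± 0.14 (SE; raw limma p 0.0059, adjusted p = 0.441), and the F test over the 3 stages gave a raw limma p of 0.0079 and an adjusted p of 0.692. A raw p under 0.05 in that F test was reached by 6.42% of all tested probes.

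**Figure D2:**
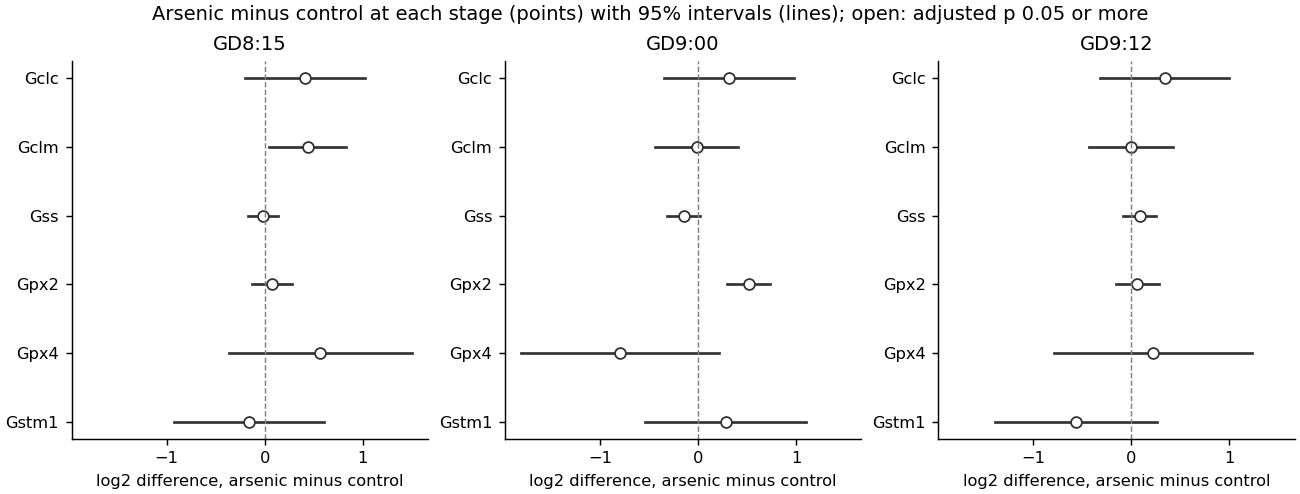
Arsenic minus control difference in log2 intensity (horizontal axis) of each of the 6 genes at each stage, with the fitted 95% interval as a line; all points are open because no difference was called. The interval of Gpx2 at GD9:00 runs from 0.30 to 0.74, and the intervals of Gpx4 are the widest, from -1.80 to 0.21 at GD9:00.

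Gpx4, the peroxidase of membrane lipids, varied more between arrays of a group than the other genes here, with a standard deviation of 0.67, at the 94.5th percentile of tested probes. At GD8:15 it had 9.33, 9.23, 8.35 and 10.87 in arsenic embryos, against 8.68, 8.77, 9.56 and 8.50 in controls. At GD9:00 it had 9.90, 10.07 and 8.18 in arsenic embryos, against 10.29, 10.41, 9.46 and 10.55 in controls. The lowest array in both arsenic groups was replicate 3, the pair that stood apart. The differences were 0.57 ± 0.44 and -0.80 ± 0.48 (SE), neither called (adjusted p of 0.922 and 0.512), and 1 array moved each by over 1.5 times. At GD8:15 the difference was 0.93 without arsenic replicate 3 and 0.09 without arsenic replicate 4. At GD9:00 it was -0.20 without arsenic replicate 3 and -1.14 without arsenic replicate 2. At GD9:12, where Gpx4 ran from 8.38 to 9.01 in arsenic embryos and from 8.32 to 8.53 in controls, the difference was 0.22 ± 0.48 (SE; adjusted p = 1.00).

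Gstm1, the mu-class transferase, also had no called difference between the arms. It had 10.77, 9.52, 9.09 and 9.87 in arsenic embryos at GD8:15, against 10.59, 10.43, 9.24 and 9.63 in controls, and both arms spanned more than 1 unit of log2. The difference was -0.16 ± 0.36 (SE; adjusted p = 0.993). At GD9:00 it was 0.28 ± 0.39 (adjusted p = 0.798; -0.12 with median centring), and at GD9:12 it was -0.56 ± 0.39 (adjusted p = 1.00), with 8.84, 8.52, 8.47 and 9.33 in arsenic embryos and 9.51, 8.86 and 9.69 in controls. Of those 4 arsenic arrays, 3 lay under every control array. Mu-class transferases are close in sequence, and whether this probe also bound transcripts of its relatives was not tested.

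At GD8:15, the summed markers of some neighbouring tissues lay apart between the arms, though no probe was called at this stage. The sums of the endoderm, blood, endothelium and surface ectoderm lists overlapped. The heart and muscle list, with 9 of 14 measured markers above the filter, summed to 6947 to 13798 in arsenic embryos and 20210 to 37884 in controls. The list of head mesenchyme and neural crest, with 8 of 11 above it, summed to 3512 to 5901 in arsenic embryos and 6343 to 8106 in controls. Of the 15 neural markers 5 were higher in arsenic embryos and 10 lower, with a median difference of -0.04; Sox2 averaged 8.43 in arsenic embryos and 9.34 in controls, and Six3, the brightest, 11.78 in arsenic embryos and 11.68 in controls. Eif2s3y, on the Y chromosome, read 7.11 to 7.30 in arsenic embryos and 7.66 to 7.79 in controls. The Y-linked genes Kdm5d and Uty overlapped between the arms. Kdm5d read 9.88 to 11.62 in arsenic embryos and 10.36 to 11.58 in controls, and Uty 7.03 to 7.33 and 7.27 to 7.47. No share of all probes that separate the arms is given beside these measures. The part of such differences in the values of Gclc, Gclm and Gpx4 at this stage was not tested.

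Between stages, Gpx2, Gstm1 and Gpx4 were each called in at least 1 of the 6 stage comparisons, 3 of the 6 genes, against 30.4% of all tested probes. Gpx2 fell in both arms between GD8:15 and GD9:12, by 0.58 ± 0.10 on the log2 scale in arsenic embryos and by 0.56 ± 0.10 in controls (SE). Gstm1 fell in controls between GD8:15 and GD9:00, and Gpx4 fell in controls between GD9:00 and GD9:12. Gclc, Gclm and Gss were not called in the reported fit, though Gclc was with array weights. The authors had scaled each stage to its own mean before the quantile normalisation used here, and the control arrays here are the same that serve the comparisons with arsenic.

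For Gpx2 the order of the group means, from high to low, was arsenic GD8:15 (8.31), control GD8:15 (8.24), arsenic GD9:00 (8.15), arsenic GD9:12 (7.73), control GD9:12 (7.68) and control GD9:00 (7.63). The first 3 groups overlapped one another and so did the last 3. Every array of the first 3 read 8.02 or more and every array of the last 3 read 7.89 or less. That split was read off after sorting by these same values, and no share of all probes is given for it, so it is a description only. Both arms were among the last 3 groups at GD9:12, and only the controls were at GD9:00. A change of the arsenic effect between stages was not called (F test, adjusted p = 0.692).
In arsenic embryos the step between GD8:15 and GD9:00 was -0.16 ± 0.10 (SE; adjusted p = 0.437), and 4.21% of all tested probes were called there. The step between GD9:00 and GD9:12 was -0.41 ± 0.10 (adjusted p = 0.0326), with 3.88% called. That call was lost under several alternatives, among them the fit to the arrays of the comparison alone (adjusted p = 0.0748) and median centring, which made it -0.24 (adjusted p = 0.275). It was also lost on leaving out any 1 of its 7 arrays except arsenic GD9:12 replicate 4 (adjusted p between 0.0377 and 0.121). Over both steps it fell by 0.58 (adjusted p = 8e-04), with 13.8% called; with series as a block this was -0.73 (adjusted p = 0.167).
In controls the step between GD8:15 and GD9:00 was -0.61 ± 0.10 (SE; adjusted p = 7e-04), with 15% of all tested probes called, and that between GD9:00 and GD9:12 was 0.05 ± 0.10 (adjusted p = 0.815), with 11.2% called. Over both steps Gpx2 fell by 0.56 (adjusted p = 0.0032), with 7.71% called. Within series C alone, which holds 1 of the 4 control arrays at GD8:15, the control differences were -0.78 to GD9:00 and -0.75 to GD9:12; with a single array at GD8:15 the spread comes from the other groups, so no p is given for them. The summed endoderm markers of the controls, beside these values, were 11783 to 12540 at GD8:15, 6886 to 10076 at GD9:00 and 9200 to 17025 at GD9:12. Trap1a, the brightest of them, averaged 12.51, 11.10 and 12.69 in controls at these stages. Of the 19 tested endoderm markers, 8 were higher and 11 lower in controls at GD9:00 than at GD8:15, with a median difference of -0.05. The part of these markers in the fall was not tested.

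**Figure D3:**
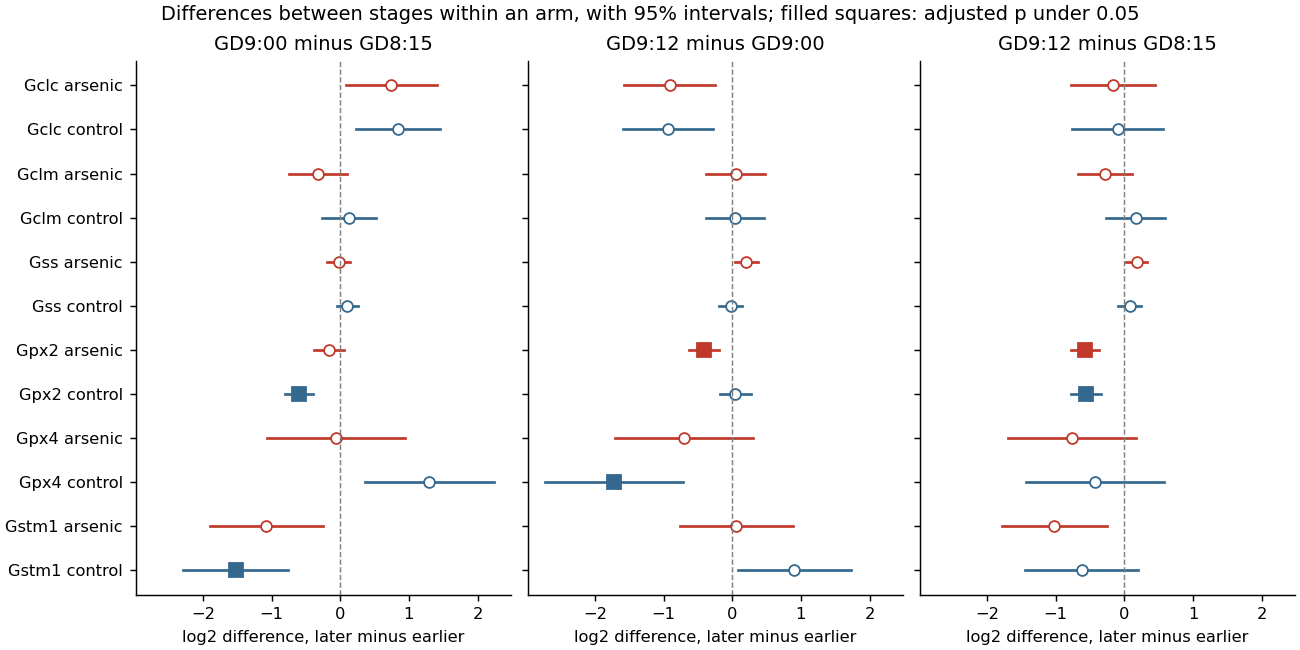
Difference in log2 intensity between stages (horizontal axis, later minus earlier) for each of the 6 genes within the arsenic arm (red) and the control arm (blue), with 95% intervals; filled squares are called and open circles are not. Gpx2 is called in both arms for GD9:12 minus GD8:15, at -0.58 in arsenic embryos and -0.56 in controls.

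Gstm1 fell in controls by 1.52 ± 0.36 on the log2 scale between GD8:15 and GD9:00 (SE; adjusted p = 0.0106). Its 4 control arrays at GD9:00 (8.92, 8.46, 8.41 and 8.01) all lay under those at GD8:15, as 11.8% of all tested probes did. Within series C the difference was -0.79, against a single control array at GD8:15 that read 9.24, the lowest of its group, which leaves that arm without a spread of its own; with series as a block the call was lost (adjusted p = 0.833). In arsenic embryos the same step was -1.08 ± 0.39 (SE; adjusted p = 0.138). From the highest mean down, Gstm1 stood at 9.97 in control GD8:15, 9.81 in arsenic GD8:15, 9.35 in control GD9:12, 8.79 in arsenic GD9:12, 8.73 in arsenic GD9:00 and 8.45 in control GD9:00, and each group overlapped the next.

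Gpx4 had its highest group mean in controls at GD9:00, 10.18 ± 0.49, and its lowest in controls at GD9:12, 8.45 ± 0.12 (SD, n = 4 and 3). It fell by 1.72 ± 0.48 on the log2 scale between them (SE; adjusted p = 0.0261), and the arrays of the 2 groups did not overlap, as for 15.5% of all tested probes in this direction. Within series C the adjusted p was 0.0553, at a difference of -1.66. The call was lost on leaving out any 1 of its 7 arrays except control GD9:00 replicate 3 (adjusted p between 0.0181 and 0.0794). The earlier control step was 1.30 ± 0.44 (SE; adjusted p = 0.0562), and the arsenic steps were -0.06 ± 0.48 and -0.71 ± 0.48 (SE). In order, the means were 10.18 in control GD9:00, 9.44 in arsenic GD8:15, 9.38 in arsenic GD9:00, 8.88 in control GD8:15, 8.67 in arsenic GD9:12 and 8.45 in control GD9:12, and each of these groups overlapped its neighbours.

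Gclc had its highest means at GD9:00 in both arms, 10.35 ± 0.26 in arsenic embryos and 10.03 ± 0.27 in controls (SD, n = 3 and 4). The steps between GD8:15 and GD9:00 were 0.74 ± 0.31 in arsenic embryos and 0.84 ± 0.29 in controls (SE; adjusted p of 0.216 and 0.0586). Those between GD9:00 and GD9:12 were -0.91 ± 0.31 and -0.94 ± 0.31 (adjusted p of 0.128 and 0.0618), and the arrays of both arms at GD9:12 lay under all arrays of the same arm at GD9:00, as for 9.27% of all tested probes in arsenic embryos and 15.5% in controls. Within series C the control steps were 0.40, against a single array at GD8:15, and -1.14 (adjusted p = 0.0260, or 0.0619 with series as a block). With array weights the later step was called in both arms, at -0.94 in arsenic embryos (adjusted p = 0.00329) and -0.85 in controls (adjusted p = 0.0129), while with median centring it was -0.07 in arsenic embryos (adjusted p = 0.933) and -0.79 in controls (adjusted p = 0.188). Its remaining means were 9.60 in arsenic GD8:15, 9.43 in arsenic GD9:12, 9.19 in control GD8:15 and 9.09 in control GD9:12, all overlapping. The Gclm means spanned 7.90 in arsenic GD8:15 to 7.47 in control GD8:15, and those of Gss 7.41 in arsenic GD9:12 to 7.21 in arsenic GD9:00. No stage difference of Gclm or Gss was called with all arrays; without arsenic GD8:15 replicate 3, Gclm was called for arsenic GD9:12 minus GD8:15 at -0.49 (adjusted p = 0.0460), and without arsenic GD8:15 replicate 4, Gss was for the same step at 0.23 (adjusted p = 0.0495).

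Gclc and Gclm, whose products form 1 enzyme, varied together between the arrays of a group. After each group's mean was taken out, Pearson's r over the 22 arrays was 0.80 (p = 0.0012 by permutation within groups, 0.018 adjusted over the 15 pairs of the 6 genes) and Spearman's rho was 0.81 (permutation p = 4.4e-04, adjusted 0.0066). Without the 2 arrays farthest out, arsenic GD8:15 replicate 3 and arsenic GD9:12 replicate 4, r was 0.62. Within series C it was 0.58 (n = 14) and within series D 0.93 (n = 6); in the scaling of the authors it was 0.60. No other pair passed after adjustment. The next highest r was that of Gss with Gpx4, 0.67 (adjusted permutation p = 0.186).

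The arrays also shared variation across the whole probe set. With group means removed, the deposited array median correlated at -0.59 with Gclm and -0.28 with Gclc. Without arsenic GD8:15 replicate 3 these were -0.44 and -0.03. Over the 22 arrays, the leading component of all deviations correlated at 0.87 with Gpx4, 0.83 with Gclm, 0.71 with Gclc and 0.51 with Gss, against -0.07 with Gpx2 and -0.17 with Gstm1. That component correlated at -0.66 with the array median. After that component was removed, r of Gclc with Gclm was 0.52, and 0.61 after the leading pair of components, both chosen after seeing the data. Ranks were taken only on the deviations before any component was removed. Among 7162 probes of other genes, Gclm was then number 21 for Gclc, and Gclc number 37 for Gclm.

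**Figure D4:**
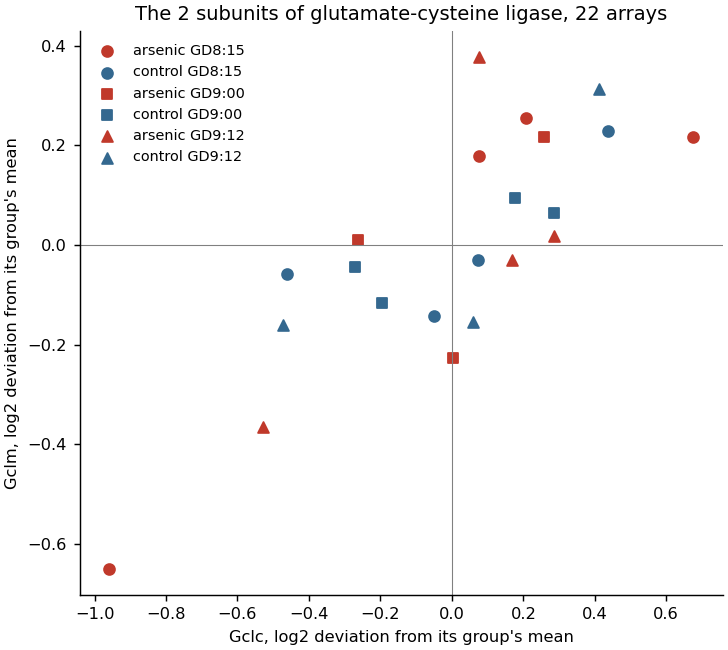
Deviation of Gclm from its group mean (vertical axis, log2) against that of Gclc (horizontal axis, log2) on the 22 arrays; colour gives the arm and the marker shape the stage. Pearson's r is 0.80, and the lowest point on both axes is arsenic GD8:15 replicate 3.

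By log2 values over all 22 arrays, group differences included, the probe most like Gclc was that of Poldip2 (Pearson's r = 0.85), followed by Mid1ip1 and the heat shock protein gene Hspa8. For Gclm these were Anxa5 (0.84), Tpp1 and Polr2g, and for Gss they were Nudt19 (0.82), Ufl1 and 1700010I14Rik. Gpx2 was most like Otub2 (0.82), Mocos and Gstm2, another mu-class glutathione transferase (0.80). Gpx4 was most like Rer1 (0.94), Dusp12 and Wdr12, and Gstm1 most like Tyk2 (0.87), Rtn2 and Vamp2. With group means removed, r of Gpx2 with Gstm2 was 0.04, whereas that of Gpx4 with Rer1 was 0.91. These probes were chosen by profiles that include the stage differences, so their own stage differences are not given as tests.

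Around the 6 genes, 55 other glutathione or NRF2 genes in 7 lists were tested. None was called between the arms at any stage in the reported fit, against 0% of all probes. Only Chac1, Hmox1 and Slc1a4 were followed through the alternatives, at GD8:15 and GD9:00, and each was called under some of them. The lists were chosen with earlier results of these data known, so counts of direction in them are descriptions. At GD8:15, 34 were higher in arsenic embryos and 21 lower, with a median difference of 0.05, against 0.00051 over all probes. At GD9:00 the counts were again 34 and 21 (median 0.06, all probes 0.0060), and at GD9:12 they were 30 and 25 (median 0.0045, all probes -0.01). Of the 6 genes themselves, 4 were higher in arsenic embryos and 2 lower at the first stage, 3 higher and 3 lower at the second, and 4 higher and 2 lower at the third.

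**Figure D5:**
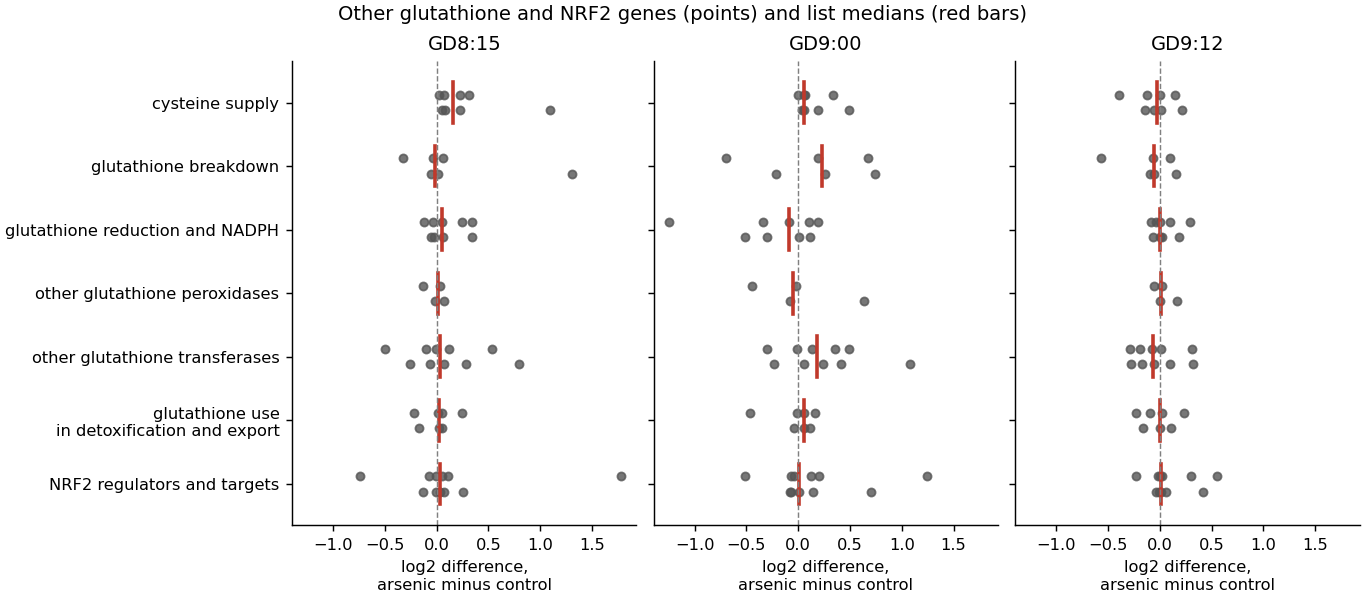
Arsenic minus control difference in log2 intensity (horizontal axis) of 55 other glutathione and NRF2 genes (grey points), by list and stage, with each list's median as a red bar. The points farthest to the right at GD8:15 are Hmox1 at 1.78, Chac1 at 1.30 and Slc1a4 at 1.09, none of them called in the reported fit.

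Genes that supply cysteine, the limiting building block, had positive differences for 8 of 8 tested members at GD8:15 and at GD9:00 (medians 0.15 and 0.06), and for 4 of 8 at GD9:12. The smallest of the 8 was 0.02 at GD8:15 and 0.00025 at GD9:00, beside medians over all probes of 0.00051 and 0.0060. This list too was chosen with earlier results of these data known, so the count is a description and not a test. Slc1a4, a carrier of neutral amino acids, had the largest, 1.09 ± 0.21 at GD8:15 (SE; adjusted p = 0.0733, and 0.0210 in the trended robust fit) and 0.49 ± 0.22 at GD9:00 (adjusted p = 0.375), where leaving out 1 array gave 0.20 (arsenic replicate 1) to 0.84 (arsenic replicate 2). Slc1a5 at GD8:15 had 0.31 ± 0.15 (SE; adjusted p = 0.705). Cth at GD9:12 went the other way, at -0.39 ± 0.20 (SE), and was not called. Slc7a11, the cystine importer, read 7.43 to 7.56 in arsenic embryos and 7.35 to 7.60 in controls at GD8:15, so that the arms overlapped.

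Of 6 tested genes for glutathione breakdown, Chac1, which cleaves glutathione inside the cell, stood out at GD8:15. It read 8.45 to 9.31 in arsenic embryos and 7.63 to 7.70 in controls, and the difference of 1.30 ± 0.22 (SE) had an adjusted p of 0.0514. The call depended on the setting: the adjusted p was 0.0142 in the trended robust fit and 0.0419 with low runs of probes masked, and up to 1.00 elsewhere. At GD9:00 its difference was 0.74 ± 0.24 (adjusted p = 0.268), 0.47 without arsenic replicate 3 and 1.15 without arsenic replicate 2 (adjusted p = 0.0396), and at GD9:12 it was -0.07 ± 0.24 (adjusted p = 1.00). Within the arsenic arm Chac1 fell by 1.48 on the log2 scale between GD8:15 and GD9:12 (adjusted p = 4e-04). Ggt6 at GD9:00 had 0.19 ± 0.11 and Anpep at GD9:12 had -0.57 ± 0.50 (SE), neither called.

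Of 11 tested NRF2 regulators and targets, Hmox1, which degrades haem, had the widest gap at GD8:15. It read 8.31 to 10.15 in arsenic embryos and 7.57 to 7.69 in controls, a difference of 1.78 ± 0.35 (SE; adjusted p = 0.0927; 0.0210 in the trended robust fit, 0.0470 with array weights and 0.00682 without replicate 3, at a difference of 2.15), and 1.24 ± 0.38 at GD9:00 (adjusted p = 0.264). At GD9:00 it was called with array weights (adjusted p = 0.0344) and without arsenic replicate 2, at 1.82 (adjusted p = 0.0396), and was 0.91 without arsenic replicate 1. In arsenic embryos it fell by 2.10 on the log2 scale between GD8:15 and GD9:12 (adjusted p = 7e-04), to 7.32 ± 0.07, beside 7.33 ± 0.07 in controls at GD9:12 (SD, n = 4 and 3). Nfe2l1 had 0.25 ± 0.08 at GD8:15 and Nqo1 had 0.20 ± 0.09 at GD9:00 (SE). Nfe2l2, which encodes NRF2, had 0.30 ± 0.18 at GD9:12, and none of these differences was called. This list had medians of 0.04, 0.01 and 0.02 at the 3 stages.

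The reduction and NADPH list (9 genes) had medians of 0.05, -0.09 and 0.0045 at the 3 stages. Its mitochondrial thioredoxin gene Txn2 had 0.25 ± 0.11 at GD8:15 and -0.34 ± 0.12 at GD9:00, where the glutaredoxin gene Glrx3 had -1.24 ± 0.43 (SE; adjusted p = 0.284). Gsr, glutathione reductase, had 0.29 ± 0.14 at GD9:12. The other transferases (10 genes) had medians of 0.03, 0.18 and -0.06. Gsto1, an omega-class transferase that can also reduce methylated arsenic, had 0.80 ± 0.31 at GD8:15 (SE; adjusted p = 0.604), and Gstp1 had 1.08 ± 0.46 at GD9:00 (adjusted p = 0.363). The other peroxidases (4 genes) had medians of 0.01, -0.05 and 0.01, with Gpx1 at -0.45 ± 0.22 and Gpx5 at 0.63 ± 0.33 at GD9:00 (SE). The detoxification and export list (7 genes) had medians of 0.03, 0.05 and 0.0053. In it Ethe1 had -0.17 ± 0.10 at GD8:15 and -0.23 ± 0.10 at GD9:12, and Esd had -0.46 ± 0.19 at GD9:00 (SE). None of the differences in these lists was called.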

How the data were processed

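Anterior neural tube RNA was amplified, biotin-labelled and hybridised to 1-colour CodeLink arrays, per the labels' protocols. The deposited values are whole-number intensities on a linear scale, which the authors had scaled to an equal mean per array within each stage, as the values show. Values of 2 or less (838, none of them of the 6 genes) were set missing. Log2 intensities were quantile normalised, and probes with at least 2 values per group and a mean above the lowest 25% were tested (7830 of 10500). Limma 3.58.1 (lmFit, eBayes) in R 4.3.3 fitted 6 group means over 22 arrays, with Benjamini-Hochberg adjustment over the tested probes. Of all probes, 9378 had 1 symbol, 8 several and 1114 none. Single differences also had a two-sided exact permutation test. Alternatives were other scalings, filters and variance settings, array weights, the series of the title codes as a block or held fixed, and leaving out each array. Leaving out 2 arsenic arrays together was added after seeing the data. The fit was tested on 10 simulated data sets, with noise drawn independently for each probe, so variation shared across probes was not simulated. Differences of 1.5-fold were recovered for 43% of altered probes at GD8:15, 35.1% at GD9:00 and 36% at GD9:12. For 2-fold these shares were 69.7%, 62.7% and 66.7%. The 6 genes and all gene lists were chosen with earlier results of these data known. Named pathway genes were drawn from the 2 of lowest p in each list at each stage, not all of which are given. Chac1, Hmox1 and Slc7a11 were set by name, and stage calls or further stages of named genes are given beside them. The most similar probes are the 3 of highest Pearson's r over 22 arrays. Promoter sequences are those of RefSeq on GRCm38.p6. The number of arrays limits the precision.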

Additional observations from a re-analysis of the deposited data

Results flagged for a closer look

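Gclm on arsenic GD8:15 replicate 3 read 7.25 on the log2 scale, far from the other 3 arrays of its group, which lay between 8.08 and 8.16. Its gap to the nearest of them was 0.914 of the group's range. Groups of 4 arrays were checked in this way 24 times over the 6 genes, and chance flags about 1 in 20. The same array had the lowest mean correlation with its own group, 0.870, among the 22 arrays. In deposited intensities, before normalisation, its Gclm value of 261 was not apart from the 260, 287 and 304 of its group.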

How the results depend on the processing

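No paired analysis was possible because the labels give no replicate numbers, and those used here only name arrays. Outside the fits that leave out 1 array, 265 values between the arms kept direction and side of the threshold, 24 turned sign and 1 became called; between stages, 329 kept both, 19 turned sign, 19 became called and 11 lost the call. Causes were not tested. Stage differences under the authors' scaling were not run, and Gss has no value under the stricter filter. In the arsenic arm, series D against C cannot be told from GD8:15 against later.

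Values that turned sign follow, as log2 differences. With median centring, Gclc was -0.33 between the arms at GD9:00, and 0.42 in arsenic embryos and 0.25 in controls for GD9:12 minus GD8:15; Gclm was 0.033 between the arms at GD9:12, Gss 0.022 on average over stages and 0.056 for arsenic GD9:00 minus GD8:15, Gpx2 -0.041 at GD8:15 and Gstm1 -0.12 at GD9:00. With the authors' scaling, Gclm was 0.46 at GD9:00 and 0.078 at GD9:12, Gss 0.23 at GD8:15, 0.49 at GD9:00 and 0.29 on average, and Gpx4 0.047 on average. With array weights, Gclm was 0.16 at GD9:00 and 0.087 at GD9:12, and for GD9:12 minus GD9:00 -0.082 in arsenic embryos and -0.0048 in controls; for arsenic GD9:00 minus GD8:15, Gss was 0.058 and Gpx4 0.46; Gpx4 was 0.30 on average, and Gstm1 -0.065 for arsenic GD9:12 minus GD9:00. With the series of the title codes as a block, and equally within 1 series, Gclm was 0.15 between the arms at GD9:12. In controls it was -0.10 for GD9:00 minus GD8:15, -0.12 for GD9:12 minus GD9:00 and -0.22 for GD9:12 minus GD8:15. In these same fits Gss was 0.023 at GD8:15 and Gstm1 0.035 for control GD9:12 minus GD8:15. As a block alone, Gpx4 was 0.055 on average. Without the 2 arsenic arrays that stood apart, chosen after seeing the data, Gclm was 0.098 at GD9:00 and -0.065 for arsenic GD9:12 minus GD9:00, Gss 0.0067 at GD8:15, 0.0065 on average and 0.023 for arsenic GD9:00 minus GD8:15, Gpx4 0.17 for that step and 0.32 on average, and Gstm1 0.080 at GD8:15.

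Leaving out 1 array at a time, differences that turned sign between the arms were those of Gclm at GD9:00 (-0.12 to 0.098) and at GD9:12 (-0.13 to 0.15), Gss at GD8:15 (-0.070 to 0.0067), Gstm1 at GD8:15 (-0.48 to 0.080) and Gpx4 on average (-0.16 to 0.20). Between stages they were those of Gclc for GD9:12 minus GD8:15 (-0.49 to 0.056 in arsenic embryos, -0.30 to 0.14 in controls), Gclm for GD9:12 minus GD9:00 (-0.078 to 0.17 in arsenic embryos, -0.12 to 0.12 in controls), Gss for arsenic GD9:00 minus GD8:15 (-0.070 to 0.049) and control GD9:12 minus GD9:00 (-0.044 to 0.0036), Gpx4 for arsenic GD9:00 minus GD8:15 (-0.43 to 0.54) and Gstm1 for arsenic GD9:12 minus GD9:00 (-0.24 to 0.31).

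Of the 6 genes, with array weights 1 was called between the arms at GD9:00 against 0 in the reported fit; 1 against 0, 3 against 1 and 2 against 1 in the arsenic steps to GD9:00, between the later stages and over both; and 4 against 2, 3 against 1 and 2 against 1 in the same control steps. With the series block these were 0 for arsenic GD9:12 minus GD8:15, 1 for control GD9:00 minus GD8:15 (also within 1 series) and 0 for control GD9:12 minus GD9:00. Arsenic GD9:12 minus GD9:00 had 0 with median centring, the stricter filter, the trended robust fit, the arrays of the contrast alone, within 1 series and without the 2 arsenic arrays. Without those 2 arrays there were 4 for arsenic GD9:12 minus GD8:15, and 4 and 2 in the control steps to GD9:00 and after it. Leaving out 1 array gave 0 to 1 for GD9:12 minus GD9:00 in either arm, 1 to 3 for arsenic GD9:12 minus GD8:15 and 2 to 4 for control GD9:00 minus GD8:15.

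Counts of called probes over the whole array that moved by more than 1.5 times were as follows, first with all arrays. Between the arms, where the reported fit called 0, GD8:15 had 3 with placeholders kept or low runs masked, 5 with the trended robust fit, and 4 with array weights or without the 2 arsenic arrays; GD9:00 had 110 with array weights, 2 with the series block, and 1 with median centring, the authors' scaling or without the 2 arsenic arrays; GD9:12 had 1 with array weights; the average had 13 with array weights, 2 with the authors' scaling and 1 without the 2 arrays. The F test had 1 with array weights. Array weights gave 887 against 330, 1434 against 304 and 1667 against 1082 in the arsenic steps to GD9:00, after it and over both, and 1972 against 1173, 1801 against 880 and 2034 against 604 in the control steps. The series block gave 6 and 7 for the arsenic steps from GD8:15, and 35, 519 and 47 for the control steps; within 1 series these control counts were 59, 560 and 128. Median centring gave 62 and 765 in the arsenic steps to and after GD9:00, and 1364 and 974 for control GD9:12 minus GD9:00 and minus GD8:15. The arrays of the contrast alone gave 47 and 692 for the arsenic steps from GD8:15 and 615 for control GD9:00 minus GD8:15, which had 726 with the stricter filter. Leaving out 1 array gave 0 to 3 at GD8:15, 0 to 35 at GD9:00 (35 without control GD9:00 replicate 2 and 14 without arsenic GD9:00 replicate 2), 0 to 1 at GD9:12, 0 to 5 for the average and 0 to 4 for the F test. It gave 132 to 385, 132 to 230 and 693 to 1050 in the arsenic steps to GD9:00, after it and over both, and 669 to 1394, 402 to 866 and 291 to 580 in the control steps. The lowest of these were without arsenic GD9:00 replicate 1 (132 in both steps, and 132 in the later one also without arsenic GD9:12 replicate 4), arsenic GD9:12 replicate 2 (693), control GD8:15 replicate 4 (669), control GD9:12 replicate 3 (402) and control GD9:12 replicate 2 (291).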
